A study of Homo sapiens with 20 samples.

Results

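The genes described here are the pioneer factors FOXA1, GATA2 and HOXB13, the coactivators NCOA1, NCOA2, NCOA3 and NCOA4, and the corepressor NCOR1, all of which act with the androgen receptor. They were taken by name from the annotation of an Affymetrix 3′ array, and a probe set was used only where it named exactly 1 of them. Of the 8 genes 6 had such a probe set, 16 probe sets in all, out of 19775 genes measured. NCOA3 and NCOR1 were not analysed here. The brightest probe set stood for each gene and the others served as a check.

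The androgen receptor is a transcription factor that moves to the nucleus when it binds an androgen. Pioneer factors bind DNA in closed chromatin and open sites for it, which makes them part of what gives prostate cells their androgen response. Once bound, the receptor recruits coactivators, which bring histone acetyltransferases and the transcription machinery, or corepressors, which bring histone deacetylases. LSD1, a histone lysine demethylase encoded by KDM1A, is itself known to act with this receptor.

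RNA came from LNCaP, an androgen-responsive human prostate cancer line, and from C42B, a castration-resistant line descended from it. In C42B, siRNA labelled siLSD1 was compared with the control siNTC (3 arrays each), 6 h of transfection being followed by 96 h in RPMI with 10% CSS, which is charcoal-stripped serum low in steroids. In a separate C42B experiment, cells held for 72 h in that medium received 100 nM dihydrotestosterone (DHT) or the same volume of ethanol (Veh+) for 16 h, with 4 arrays each. In LNCaP, siLSD1 and siNTC at 50 nM were followed by 96 h in RPMI with 10% FBS, and RNA from wells was pooled in pairs for each of 3 arrays per group. The LNCaP replicates are labelled biological, while those of C42B are wells of a plate (6 separate wells gave the 3 siRNA replicates), whose independence is not stated, so there the p-values reflect only how these wells vary. Only 1 siRNA label targets LSD1 in each line, so its sequence and the loss of LSD1 cannot be told apart, nor can line and medium. Fewer cells of a kind and less RNA per cell cannot be told apart in bulk RNA either.

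The median intensity of an array was 78.4 to 81.2 for the C42B siRNA arrays, 84.1 to 86.1 for the DHT experiment and 63.3 to 65.1 for LNCaP. Because these ranges do not overlap, levels were compared only within an experiment. The log2 fold change of KDM1A with siLSD1 was −2.40 ± 0.08 (SE) in C42B and −2.78 ± 0.08 in LNCaP. The androgen-induced protease gene KLK3 had a log2 fold change of 2.74 ± 0.07 with DHT. All 6 luminal prostate markers measured were bright (a mean log2 intensity of 6 or more in each group) in each experiment, while the basal markers KRT14 and KRT15 and the leukocyte marker PTPRC were dim. Of the luminal markers, which include HOXB13, 3 passed higher with siLSD1 in each line, and 5 passed higher and 1 lower (HOXB13) with DHT. Among the 3 basal markers measured, KRT5 was bright only in the DHT experiment, and KRT14, though dim, passed higher with DHT (0.32 ± 0.10) and with siLSD1 in LNCaP (0.36 ± 0.07). Of 8 stromal, endothelial and leukocyte markers 4 or 5 were bright in an experiment, none passed higher in any, and the number that passed lower was 0 with siLSD1 in C42B, 2 with it in LNCaP and 1 with DHT. The part of these markers in the results was not tested. For the actin control, the 3′ probe set exceeded the 5′ one on the log2 scale by 1.17 to 1.31 in C42B siLSD1 and 1.13 to 1.19 in siNTC, 0.91 to 1.16 with DHT and 0.90 to 1.12 with vehicle, and 0.93 to 1.09 in LNCaP siLSD1 and 0.82 to 0.98 in siNTC, so these ranges overlapped within each experiment.

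RefSeq sequence before the start was examined for 4 of the 6 genes (GRCh38.p14), HOXB13 and NCOA2 not being used here. The windows below are the 250 bases before a start, read 5′ to 3′ on the gene's strand, and are shown for a pioneer factor that passed no test (FOXA1), a pioneer factor that was lower with DHT (GATA2), a coactivator that was higher with siLSD1 in LNCaP (NCOA4), and the only window of these genes that holds a motif searched (a downstream start of NCOA1).
FOXA1, chr14:37595250-37595499, minus strand: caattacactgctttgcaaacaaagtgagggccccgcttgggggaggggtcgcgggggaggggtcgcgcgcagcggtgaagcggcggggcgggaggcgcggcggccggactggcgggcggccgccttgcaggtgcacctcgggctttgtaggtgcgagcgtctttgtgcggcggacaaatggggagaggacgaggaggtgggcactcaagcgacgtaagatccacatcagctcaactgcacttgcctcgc
GATA2, chr3:128493202-128493451, minus strand: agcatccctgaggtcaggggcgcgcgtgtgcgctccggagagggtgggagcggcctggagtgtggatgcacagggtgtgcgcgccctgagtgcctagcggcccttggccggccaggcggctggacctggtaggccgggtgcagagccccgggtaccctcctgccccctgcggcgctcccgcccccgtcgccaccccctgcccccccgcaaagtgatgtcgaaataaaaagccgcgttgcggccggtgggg
NCOA4, chr10:46030624-46030873, minus strand: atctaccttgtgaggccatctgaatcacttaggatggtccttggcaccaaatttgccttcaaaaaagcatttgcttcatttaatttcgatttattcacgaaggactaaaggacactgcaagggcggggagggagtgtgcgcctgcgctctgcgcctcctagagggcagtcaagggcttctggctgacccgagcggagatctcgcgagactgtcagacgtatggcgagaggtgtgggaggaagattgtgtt
NCOA1, chr2:24584227-24584476, plus strand: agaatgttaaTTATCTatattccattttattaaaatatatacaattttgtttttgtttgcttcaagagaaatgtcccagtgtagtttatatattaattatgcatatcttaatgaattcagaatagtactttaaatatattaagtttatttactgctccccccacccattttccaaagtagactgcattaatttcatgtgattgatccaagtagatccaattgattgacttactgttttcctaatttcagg

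Motifs were searched on both strands and are in capitals where found. The full androgen response element, a palindrome, was in 0.00285% of 35116 such windows of all genes, its repeat unit AGAACA, which lies within it, in 12.4%, the forkhead motif TGTTTAC in 2.98%, the GATA motif AGATAA in 9.17% and the HOXB13 motif CCATAAA in 2.30%. None of these was found in the FOXA1, GATA2 or NCOA4 windows. The NCOA1 window holds 1 GATA motif, as TTATCT on the printed strand, 235 to 240 bases before that start. The share of G and C was 67.2% for FOXA1, 72.8% for GATA2 and 52.0% for NCOA4, against 27.2% for this NCOA1 window and a median of 58.0% over all windows. The NCOA1 windows at chr2:24491004-24491253 and chr2:24491627-24491876, which are not shown, had 87.2% and 74.0% and held none of the motifs. A match is a run of letters and was not tested as a binding site.

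Among the pioneer factors, GATA2 and HOXB13 were lower with DHT and FOXA1 did not pass in any comparison. Neither GATA2 nor HOXB13 passed with siLSD1 in either line. By its brightest probe set, NCOA2 was lower with DHT and higher with siLSD1 in both lines, while its second brightest passed in none of the 3. NCOA4 was higher with siLSD1 in LNCaP. By its brightest probe set NCOA1 passed narrowly lower with DHT and did not pass with siLSD1. By the mean of its probe sets it passed lower with siLSD1 in C42B and did not pass with DHT.

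**Figure D1:**
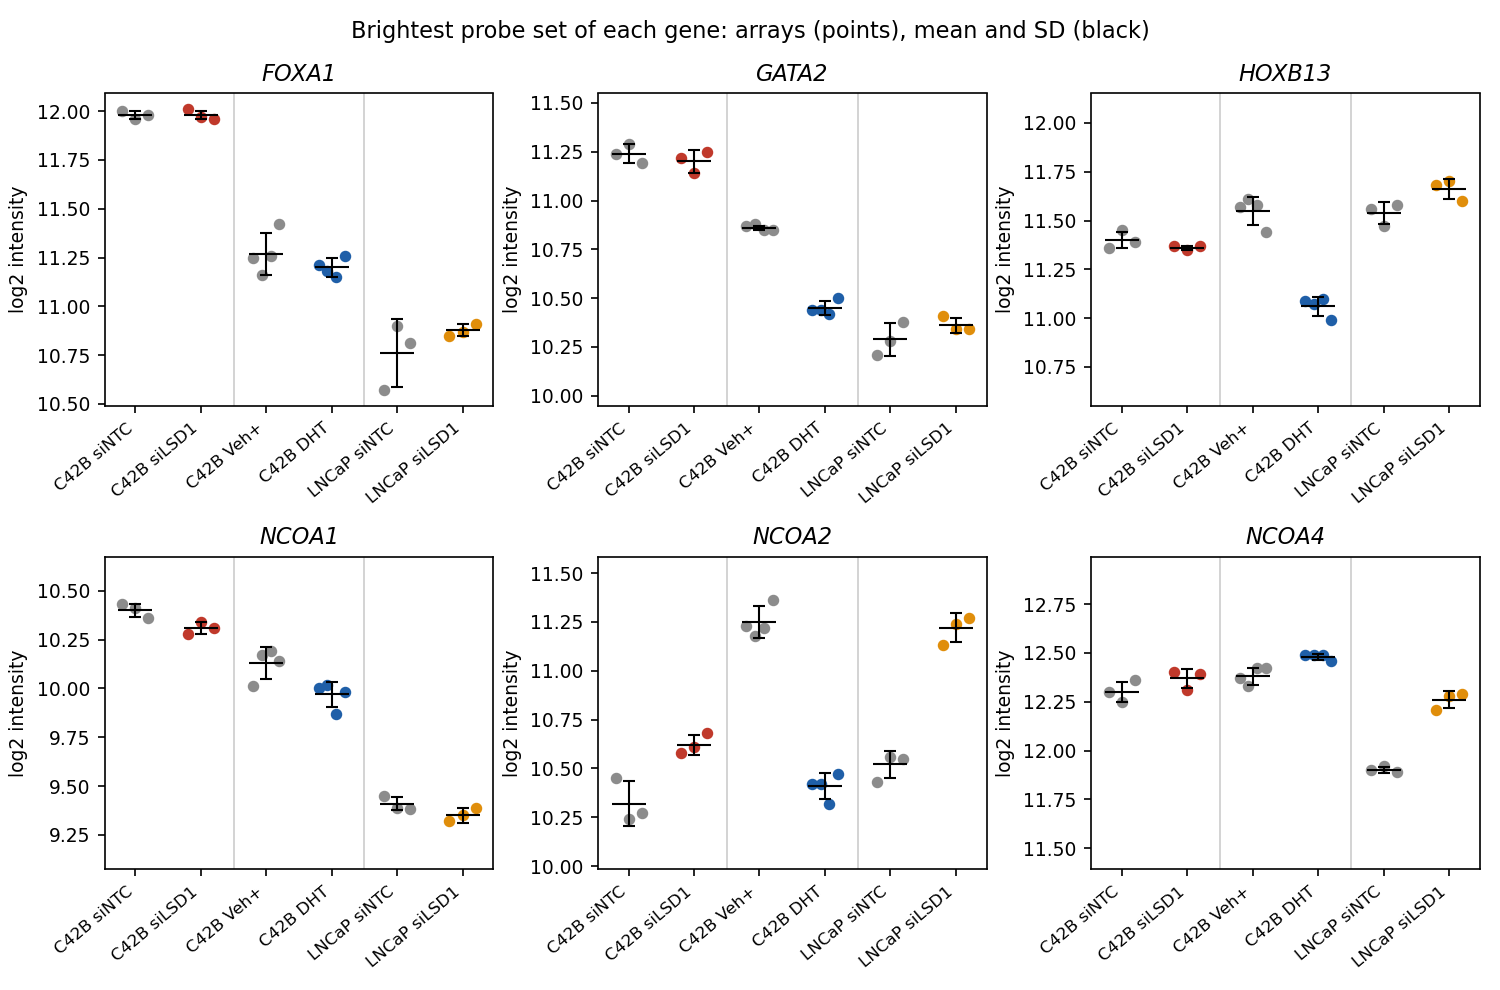
The log2 intensity of the brightest probe set of each gene (y axis, the same span in every panel) is plotted for the 6 groups (x axis), with 1 point per array and the group mean and SD in black, and grey lines separate the 3 experiments. NCOA2 lies at 10.32 to 10.47 with DHT against 11.18 to 11.36 with vehicle, and the FOXA1 groups overlap in each experiment.

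FOXA1, a forkhead protein and the best known pioneer factor for the receptor, lies at chr14:37589552-37595249. Its log2 intensities in C42B were 12.01, 11.97 and 11.96 with siLSD1, and with siNTC they were 12.00, 11.96 and 11.98. In LNCaP they were 10.85, 10.87 and 10.91 with siLSD1 and 10.57, 10.90 and 10.81 with siNTC. With DHT they were 11.21, 11.18, 11.15 and 11.26, and with vehicle 11.25, 11.16, 11.26 and 11.42. The groups overlapped in each experiment. The log2 fold changes were 0.00 with siLSD1 in C42B (95% interval −0.11 to 0.11), 0.12 in LNCaP (−0.09 to 0.32) and −0.07 with DHT (−0.20 to 0.06), at limma adjusted p of 0.99, 0.41 and 0.41. Single arrays weigh on these small values: without siNTC replicate 1 the LNCaP value was 0.02, without siNTC replicate 2 it was 0.19, and the DHT value was −0.11 without vehicle replicate 2 and −0.02 without vehicle replicate 4. The second FOXA1 probe set gave 0.17, −0.15 and 0.15 in the same order (limma adjusted p = 0.34, 0.38 and 0.092 over all probe sets), so the direction differed between the probe sets in LNCaP and with DHT while neither passed.

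GATA2, a zinc finger factor that binds GATA motifs and is known to support the receptor's access to DNA, lies at chr3:128479422-128493201. With DHT its log2 intensities were 10.44, 10.44, 10.42 and 10.50, and with vehicle they were 10.87, 10.88, 10.85 and 10.85. Every DHT array was below every vehicle array. GATA2 fell by 24.8%, a log2 fold change of −0.41 ± 0.04 (SE, n = 4 per group) (limma adjusted p = 2.2e-05, two-sided exact permutation p = 0.029, which is as low as 4 against 4 can reach). A change of at least this size was seen in 11.0% of genes with DHT.

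GATA2 read 11.22, 11.14 and 11.25 with siLSD1 in C42B, against 11.24, 11.29 and 11.19 with siNTC. In LNCaP it read 10.41, 10.34 and 10.34 with siLSD1 and 10.21, 10.28 and 10.38 with siNTC. The groups overlapped in both lines, with log2 fold changes of −0.04 (95% interval −0.17 to 0.09, limma adjusted p = 0.70) and 0.07 (−0.07 to 0.22, limma adjusted p = 0.48). The second GATA2 probe set repeated the change with DHT at −0.41 ± 0.05 (limma adjusted p = 3.4e-04 over all probe sets), but the dimmest did not (0.05 ± 0.07, limma adjusted p = 0.69). That dimmest probe set passed higher with siLSD1 in LNCaP (0.32 ± 0.07, limma adjusted p = 0.010), where the second had −0.18 ± 0.09 (limma adjusted p = 0.19), so the probe sets of GATA2 disagree in LNCaP. The suffix of the second probe set, _x_at, marks probes that may also match other transcripts.

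HOXB13, the homeobox factor that marks the prostate lineage and binds many of the receptor's sites in prostate tumours, lies at chr17:48724763-48728750. With DHT its log2 intensities were 11.09, 11.07, 11.10 and 10.99, and with vehicle they were 11.57, 11.61, 11.58 and 11.44. The groups did not overlap, and the lowest array of each group was its replicate 4. HOXB13 fell by 28.8%, a log2 fold change of −0.49 ± 0.05 (SE, n = 4 per group) (limma adjusted p = 4.6e-05, two-sided exact permutation p = 0.029). The second HOXB13 probe set gave −0.48 ± 0.06 (limma adjusted p = 1.7e-04 over all probe sets). HOXB13 is thus the gene of this set with more than 1 probe set in which all of them gave the same direction and the same call in each comparison.

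HOXB13 read 11.37, 11.35 and 11.37 with siLSD1 in C42B, against 11.36, 11.45 and 11.39 with siNTC, and the groups overlapped (log2 fold change −0.04, 95% interval −0.15 to 0.07, limma adjusted p = 0.65). In LNCaP it read 11.68, 11.70 and 11.60 with siLSD1 and 11.56, 11.47 and 11.58 with siNTC. These groups did not overlap, yet the change of 0.12 (95% interval −0.02 to 0.26) did not pass (limma adjusted p = 0.20). The difference between the lines, −0.16 (95% interval −0.32 to 0.00), had a limma adjusted p of 0.19.

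NCOA1 and NCOA2, also called SRC-1 and TIF2, belong to the p160 family of coactivators, which bind the hormone-bound receptor through short leucine-rich motifs and recruit histone acetyltransferases. NCOA1 lies at chr2:24491254-24770702. With DHT it read 10.00, 10.02, 9.87 and 9.98, and with vehicle 10.01, 10.17, 10.19 and 10.14. The groups touched only through vehicle replicate 1. The log2 fold change was −0.16 ± 0.05 (limma adjusted p = 0.047, exact permutation p = 0.057), and 38.7% of genes changed at least as much. This call ended when any 1 of the 4 DHT arrays or of vehicle replicates 2, 3 and 4 was left out (limma adjusted p of 0.054 to 0.13) and with median centring of the arrays (−0.09, limma adjusted p = 0.21), and the other 3 NCOA1 probe sets, at −0.01, −0.01 and −0.09, did not pass.

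The siLSD1 arrays of C42B gave 10.28, 10.34 and 10.31 for NCOA1, below the 10.43, 10.41 and 10.36 of siNTC in every array, but the log2 fold change of −0.09 ± 0.05 did not pass (limma adjusted p = 0.26). The other 3 probe sets gave −0.25 ± 0.07, −0.26 ± 0.07 and −0.30 ± 0.09 (limma adjusted p = 0.045, 0.058 and 0.070 over all probe sets), and their mean with the brightest passed at −0.22 (limma adjusted p = 0.014). The one at −0.25 has the suffix _x_at, so its probes may also match other transcripts. Of the 4, the brightest probe set gave the smallest change. In LNCaP it read 9.32, 9.35 and 9.39 with siLSD1 and 9.45, 9.39 and 9.38 with siNTC. All 4 probe sets there had values below 0, from −0.18 to −0.05, and none passed.

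NCOA2 lies on chromosome 8. With DHT in C42B its log2 intensities were 10.42, 10.42, 10.32 and 10.47, and with vehicle they were 11.23, 11.18, 11.22 and 11.36. The groups did not overlap, and the gap between them was wider than the range within either group. NCOA2 fell by 44.2%, a log2 fold change of −0.84 ± 0.05 (SE, n = 4 per group) (limma adjusted p = 2.3e-06, two-sided exact permutation p = 0.029), and 3.22% of genes changed at least as much. Averaged over its 4 probe sets, the NCOA2 change with DHT was −0.45, still past the threshold (limma adjusted p = 1.8e-04).

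In LNCaP, NCOA2 read 11.13, 11.24 and 11.27 with siLSD1, against 10.43, 10.56 and 10.55 with siNTC. The groups did not overlap. NCOA2 rose 1.63-fold, a log2 fold change of 0.70 ± 0.07 (n = 3 per group, limma adjusted p = 1.5e-04, exact permutation p = 0.10, which is as low as 3 against 3 can reach), and 4.06% of genes changed at least as much. In C42B NCOA2 read 10.58, 10.61 and 10.68 with siLSD1, against 10.45, 10.24 and 10.27 with siNTC, again without overlap. The rise there was 1.23-fold (log2 fold change 0.30 ± 0.07, limma adjusted p = 0.023). That call ended without siLSD1 replicate 2 (limma adjusted p = 0.071) or 3 (0.090) and without siNTC replicate 2 (0.077) or 3 (0.079), at values of 0.26 to 0.30.

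By the brightest probe set, the rise of NCOA2 with siLSD1 was smaller in C42B than in LNCaP. The difference, C42B minus LNCaP, was −0.40 ± 0.10 on the log2 scale (95% interval −0.61 to −0.19, limma adjusted p = 0.017). With the mean of its 4 probe sets it was −0.34 and no longer passed (limma adjusted p = 0.11). The direction was not the same in every probe set: the dimmest gave −1.12 ± 0.21 (limma adjusted p = 0.0063 over all probe sets), and the other 2 gave 0.06 ± 0.13 and 0.10 ± 0.22 (limma adjusted p = 0.84 for both).

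The other NCOA2 probe sets were much dimmer, with group means of 3.82 to 7.42. The dimmest over the 20 arrays passed in LNCaP at 0.85 ± 0.07, from 6.57 ± 0.054 with siNTC to 7.42 ± 0.059 with siLSD1 (SD, n = 3, limma adjusted p = 5.7e-05). It passed with DHT as well, at −0.60 ± 0.13 (limma adjusted p = 0.0063), though both groups were dim. In C42B, where it was far below 6 in both siRNA groups, it gave −0.26 ± 0.19 (limma adjusted p = 0.41). The second brightest gave 0.05 and −0.01 with siLSD1 in C42B and LNCaP and −0.18 with DHT, and passed in none of them. Averaging its 4 probe sets ended the call with siLSD1 in C42B (0.14, limma adjusted p = 0.42). The third brightest gave 0.48 ± 0.16 with siLSD1 in C42B, 0.38 ± 0.12 in LNCaP and −0.17 ± 0.12 with DHT. It went in the direction of the brightest each time but did not pass (limma adjusted p = 0.10, 0.057 and 0.31). The changes of NCOA2 in LNCaP and with DHT thus passed in 2 of its 4 probe sets.

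NCOA4, also known as ARA70, was named as a coactivator of the androgen receptor and is the receptor that delivers ferritin to autophagy. It lies at chr10:46005088-46030623 and was read by 1 probe set. With siLSD1 in LNCaP it read 12.21, 12.28 and 12.29, against 11.90, 11.92 and 11.89 with siNTC. The groups did not overlap, and NCOA4 rose 1.28-fold, a log2 fold change of 0.36 ± 0.05 (n = 3 per group, limma adjusted p = 0.0018, exact permutation p = 0.10). A change of this size or more was seen in 14.9% of genes.

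NCOA4 read 12.40, 12.31 and 12.39 with siLSD1 in C42B, against 12.30, 12.25 and 12.36 with siNTC, and the groups overlapped (log2 fold change 0.06, 95% interval −0.06 to 0.19, limma adjusted p = 0.48). The difference between the lines was −0.30 ± 0.07 (limma adjusted p = 0.018), and it lost its call without C42B siLSD1 replicate 2 (limma adjusted p = 0.054) or LNCaP siLSD1 replicate 2 (0.050). With DHT, NCOA4 read 12.49, 12.49, 12.49 and 12.46, above the 12.37, 12.33, 12.42 and 12.42 of vehicle in every array. That difference of 0.10 ± 0.04 did not pass (limma adjusted p = 0.084). It passed with median centring (0.17, limma adjusted p = 0.0085), with dim genes left out (limma adjusted p = 0.044) and with a trended, robust variance (limma adjusted p = 0.0065). It did not pass with quantile normalization (0.07, limma adjusted p = 0.22) or in a joint fit of all 20 arrays (limma adjusted p = 0.052). Nor did it pass when any 1 array was left out (limma adjusted p of 0.09 to 0.20).

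**Figure D2:**
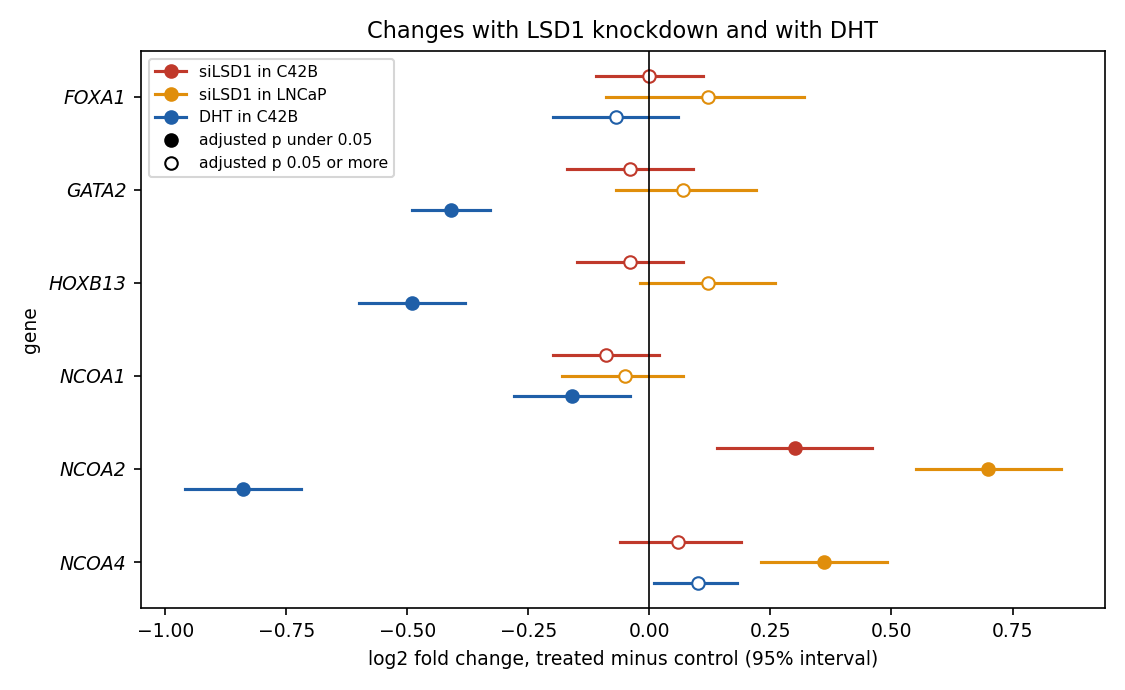
The log2 fold change of each gene (x axis, treated minus control, with its 95% interval as a line) is plotted for the 3 treatments, siLSD1 in either line and DHT, filled where the limma adjusted p is under 0.05. NCOA2 is at −0.84 with DHT and at 0.30 and 0.70 with siLSD1, and FOXA1 intervals include 0 in all 3 comparisons.

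Set against all genes, the count of calls among the 6 was as follows. With siLSD1 in C42B, 1 of 6 passed (NCOA2, higher), where 18.0% of 19775 genes were called, 8.66% higher and 9.39% lower. With siLSD1 in LNCaP 2 of 6 passed, both higher, where 25.9% of genes were called, 13.4% higher and 12.5% lower. These shares are near the background. With DHT 4 of 6 passed, all lower, where 32.7% of genes were called, 13.4% higher and 19.4% lower. The difference between the lines passed for 2 of 6, both below 0, where 11.6% of genes were called, 5.56% above 0 and 6.07% below. The 6 genes are all bright, and the shares over all genes are larger when genes under 6 in every group compared are left out. Then 4353 of 13905 genes were called with siLSD1 in C42B and 5525 of 12782 in LNCaP. With DHT 6577 of 14095 were called, and 5 of the 6 genes. For the difference 2734 of 14213 were called. Groups did not overlap for 2 of 6 genes in C42B with siLSD1, 3 of 6 in LNCaP and 4 of 6 with DHT, against 36.3%, 40.1% and 34.6% of all genes. The median log2 fold change of the 6 genes was −0.02, 0.12 and −0.29 in these comparisons, beside −0.02, 0.01 and 0.01 over all genes, and with 6 genes these are descriptions.

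**Figure D3:**
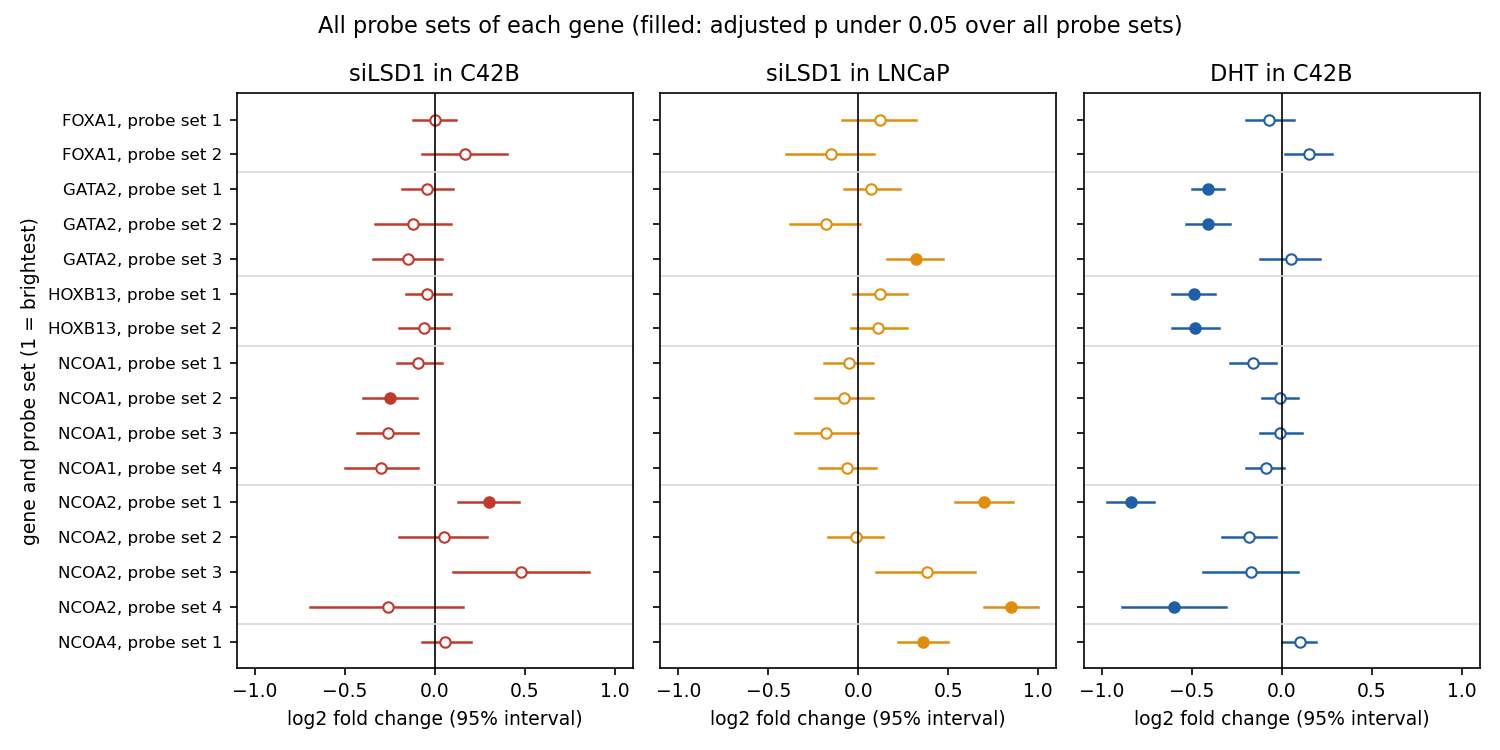
The log2 fold change with its 95% interval (x axis) is plotted for each of the 16 probe sets (y axis, numbered from the brightest), filled where the limma adjusted p over all probe sets is under 0.05. Both HOXB13 probe sets lie near −0.49 with DHT, while the 4 NCOA2 probe sets spread from −0.84 to −0.17.

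Across all 16 probe sets, 1 passed higher and 1 lower with siLSD1 in C42B, where 12.7% of 41091 probe sets were called. In LNCaP 4 passed higher and none lower, where 21.9% were called. With DHT 6 passed lower and none higher, where 27.0% were called. The difference between the lines passed for 4, all below 0, where 8.44% were called. Brightest NCOA1 is among those that did not pass when adjusted over all probe sets (limma adjusted p = 0.066).

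The genes most like each of the 6 were sought over the 20 arrays, on log2 intensity minus the experiment's mean, among 11914 genes bright in all groups. The arrays of a group share their treatment, so these correlations mostly follow the group differences and are descriptions. NCOA2 was most like PROM2 (r = 0.99), a prominin, which changed by 0.27 and 0.61 with siLSD1 in C42B and LNCaP and by −0.81 with DHT. It was next most like OCLN (r = 0.98), the tight junction protein occludin, at 0.33, 0.87 and −0.91. HOXB13 was most like RAB17 and TMEM144 (both r = 0.97), at −0.59 and −1.82 with DHT. GATA2 was most like AKTIP (r = 0.96) and LRRC75A (r = 0.95), at −0.65 and −0.55 with DHT. NCOA4 was most like SPPL2A, an intramembrane protease (r = 0.96), and PLEKHB2 (r = 0.95), at 0.48 and 0.63 with siLSD1 in LNCaP. For NCOA1 they were FASTKD3 (r = 0.90) and NTPCR (r = 0.89), and for FOXA1 HLTF (r = 0.77) and KLHL28 (r = 0.75).

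Other genes of the same roles were followed as lists, to be read against the shares of all genes called, 18.0%, 25.9% and 32.7%. Of 24 measured pioneer and collaborating factors, 8 were higher and 4 lower with DHT (median log2 fold change 0.09, against 0.01 over all genes). KLF5, a Krüppel-like factor, rose by 2.03 ± 0.10, SPDEF, an epithelial ETS factor, by 1.75 ± 0.05 and SOX9 by 1.14 ± 0.06 (limma adjusted p = 3.3e-07, 1.5e-08 and 5.0e-07). GATA6 (−0.61 ± 0.07), NFIX (−0.48 ± 0.06) and CEBPB (−0.43 ± 0.05) fell. With siLSD1 in LNCaP 5 of the 24 were higher and 4 lower (median −0.01), among them SOX9 (0.48 ± 0.11), GATA6 (0.45 ± 0.09) and SPDEF (0.42 ± 0.07) higher, and NFIA (−0.41 ± 0.08) and ETV1 (−0.34 ± 0.07) lower. With siLSD1 in C42B 1 was higher and 2 lower (median −0.01): XBP1, a factor of the unfolded protein response, at 0.32 ± 0.08, and the FOXA1 partners NFIA and NFIB, both at −0.22 ± 0.05. GATA6 thus passed lower with DHT, as GATA2 did, but passed higher with siLSD1 in LNCaP, where brightest GATA2 did not pass.

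Of 42 other coactivators measured, 9 were higher and 6 lower with DHT (median −0.01). NCOA7 fell by 1.43 on the log2 scale (log2 fold change −1.43 ± 0.06, limma adjusted p = 1.0e-07) and SVIL, supervillin, had −1.27 ± 0.06, while ZMIZ1 (0.93 ± 0.04) and the SUMO ligase PIAS1 (0.64 ± 0.05) were higher. In LNCaP with siLSD1, 6 were higher and 8 lower (median −0.03). There NCOA7 (0.76 ± 0.09) and the acetyltransferase KAT2B (0.61 ± 0.10) were higher, and PELP1 (−0.41 ± 0.06), the Mediator subunit MED1 (−0.40 ± 0.10) and the arginine methyltransferase CARM1 (−0.37 ± 0.09) were lower. In C42B with siLSD1, 9 were higher and 5 lower (median −0.02), with gelsolin GSN (0.68 ± 0.05), the kinase MAK (0.56 ± 0.05) and KAT2B (0.42 ± 0.07) higher and PIAS2 (−0.48 ± 0.05) and the demethylase KDM3A (−0.32 ± 0.05) lower. NCOA7, like NCOA2, was lower with DHT and higher with siLSD1 in LNCaP.

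Of 30 other corepressors measured, 6 were higher and 6 lower with DHT (median 0.02). The zinc finger repressor ZBTB16 rose by 2.23 ± 0.06 and CORO2A, a protein of the NCoR complex, by 0.77 ± 0.06, while CTBP1 (−1.06 ± 0.04), TLE1 (−0.62 ± 0.06) and TLE3 (−0.51 ± 0.05) fell. With siLSD1 in LNCaP 5 were higher and 7 lower (median −0.05). HDAC3, the deacetylase of the NCoR complex, rose by 0.71 ± 0.06 (limma adjusted p = 1.0e-04) and CORO2A by 0.64 ± 0.05, and DAXX (−0.53 ± 0.06) and HDAC2 (−0.51 ± 0.07) fell. With siLSD1 in C42B 2 were higher and 6 lower (median −0.07), with CORO2A (0.52 ± 0.08) and the corepressor NRIP1 (0.23 ± 0.05) higher and SIN3A (−0.38 ± 0.05) and CTBP1 (−0.32 ± 0.05) lower. CORO2A passed higher in all 3 comparisons. The siLSD1 effect on HDAC3 differed between the lines by −0.65 ± 0.09 (C42B minus LNCaP, limma adjusted p = 7.8e-04).

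**Figure D4:**
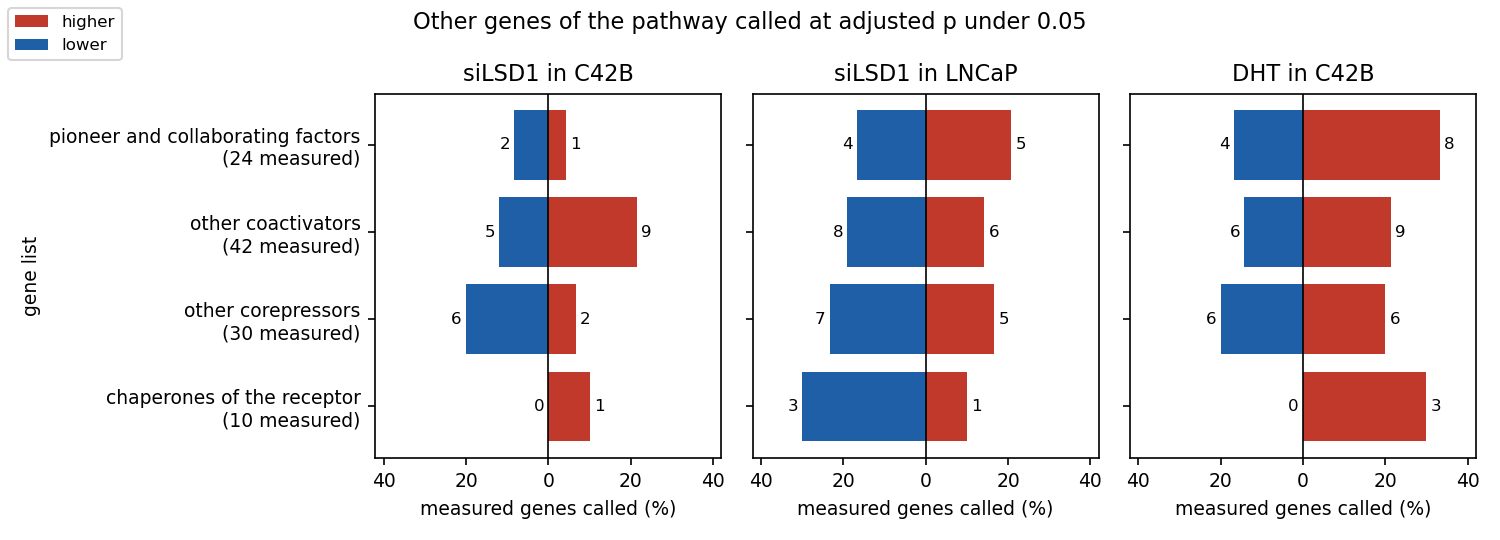
The share of measured genes called at a limma adjusted p under 0.05 (x axis, percent, higher to the right and lower to the left, with the count beside each bar) is plotted for the 4 lists in the 3 comparisons. With DHT 8 of 24 pioneer and collaborating factors were higher and 4 lower.

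Of 10 chaperones and immunophilins of the receptor measured, 3 were higher with DHT and none lower (median 0.05). The immunophilin FKBP5, itself a known androgen-induced gene, rose by 3.12 ± 0.04 (limma adjusted p = 1.3e-10), and STIP1 (0.16 ± 0.05) and DNAJA1 (0.15 ± 0.04) also passed. With siLSD1 in LNCaP 1 was higher and 3 lower (median −0.11), FKBP1A at 0.47 ± 0.07 and FKBP5, DNAJA1 and PTGES3 at −0.37 ± 0.06, −0.30 ± 0.05 and −0.19 ± 0.06. With siLSD1 in C42B 1 passed, FKBP1A (0.35 ± 0.06, median of the list −0.09). Between the lines the difference passed for 1 of 24 pioneer and collaborating factors, 3 of 42 coactivators, 6 of 30 corepressors and 1 of 10 chaperones, where 11.6% of all genes passed, the last being FKBP5 (0.46 ± 0.07, limma adjusted p = 0.0011).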

How the data were processed

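The deposited intensity values are per probe set and on a linear scale, from 4.34 to 36333. Per the submitters' processing notes, the tools were affy and RMA (versions not given in the sources used here). Each value was turned into its log2. Of 54675 probe sets, 41091 name exactly 1 gene in the annotation given, 1801 several and 11721 none, and 62 are controls. Symbols were updated by gene ID. Each comparison had its own limma 3.58.1 fit (R 4.3.3; lmFit, eBayes) over 19775 genes, two-sided, and a gene passed where its Benjamini-Hochberg adjusted p was under 0.05. Both lines' siRNA arrays entered 1 fit for the difference of their effects. The fit was tested on simulated data. Tables and figures used Python 3.11.15, pandas 2.3.3, scipy 1.17.1 and matplotlib 3.10.9.

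The genes, the 4 lists and the tests were chosen with earlier results of these data known. The rule named all 6 genes in every comparison, up to 3 passing bright genes per list and direction by size, and the 2 most similar genes. Alternatives were the mean of all probe sets, the second brightest probe set, a replicate block, median centring, quantile normalization, leaving out dim genes, a trended and robust variance, a joint fit of all 20 arrays, and omission of each array in turn.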

Additional observations from a re-analysis of the deposited data

Results flagged for a closer look

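The siLSD1 effect on NCOA2 differed between the lines by −0.40 on the log2 scale (C42B minus LNCaP, 0.30 against 0.70), and that on NCOA4 by −0.30 (0.06 against 0.36), both by the contrast of the effects. With the mean of its probe sets the NCOA2 difference was −0.34 and did not pass (limma adjusted p = 0.11), and with the second brightest it was 0.06 (limma adjusted p = 0.84). In the siRNA groups the second brightest had means of 5.81 to 6.28, against 10.32 to 11.22 for the brightest. The dimmest, which enters the mean of the probe sets, had 3.82 and 4.09 in C42B. The lines also differed in medium and in handling of wells, which cannot be told apart from the line. In the NCOA4 arrays with DHT, replicate 4 at 12.46 stood apart from the others at 12.49, with a gap of 0.845 of the group's range. The range of these 4 arrays is itself small (SD 0.016). The 6 genes and KDM1A, each in the DHT and the vehicle group, gave 14 sets of 4 values, and only this NCOA4 set passed. The sets come from the same arrays and are not independent, and chance flags about 1 in 20 sets.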

How the results depend on the processing

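Of 380 values of the 6 genes under an alternative, 343 kept their direction and side of the threshold, 24 lost the call and 5 gained it. Direction was read from rounded values, and a value that rounded to 0 counted as kept. FOXA1 with siLSD1 in C42B therefore could not be counted as turned. The 10 that turned sign, of which 2 are among the lost calls, all came from using other probe sets. With the mean of all probe sets FOXA1 was −0.02 with siLSD1 in LNCaP, 0.04 with DHT and 0.10 for the difference between the lines. With the second brightest probe set FOXA1 was −0.15, 0.15 and 0.32 in that order, GATA2 −0.18 in LNCaP and 0.06 for the difference, and NCOA2 −0.01 and 0.06. Of the 6 genes, 5 have a second probe set, and NCOA4 does not. Read by the second brightest, 2 passed with DHT (4 by the brightest), 0 with siLSD1 in LNCaP (2) and 0 for the difference (2). In LNCaP and for the difference, the 2 by the brightest were NCOA2 and NCOA4, so NCOA4 could not be checked this way. The second brightest NCOA2 probe set was dim or nearly so, with group means of 5.81 to 6.64. Averaging each gene's probe sets left 1 for the difference, NCOA4. With siLSD1 in C42B the count stayed at 1 under both, but the gene changed. NCOA2 no longer passed, and NCOA1 passed lower by the second brightest (−0.25, limma adjusted p = 0.045) and by the mean (−0.22, limma adjusted p = 0.014). The cause was not tested. When every probe set was tested, 8992, 11091 and 3470 probe sets passed with siLSD1 in LNCaP, with DHT and for the difference, against 5120, 6470 and 2300 genes, over more features.

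Leaving out 1 array gave 0 to 1 genes of the 6 with siLSD1 in C42B, 3 to 4 with DHT and 1 to 2 for the difference, and 1907 to 3962 genes in all with siLSD1 in C42B (3569 with every array). The counts were 2111 without C42B siLSD1 replicate 2, 1907 without replicate 3, 2341 without siNTC replicate 2 and 2326 without siNTC replicate 3. With the replicate block, 0 of the 6 genes passed with siLSD1 in C42B (NCOA2 0.30, limma adjusted p = 0.052) and 3 with DHT (NCOA1 −0.16, limma adjusted p = 0.092). It changed no other call of the 6 genes. Numbers shared across groups showed no clear pairing. Deviations from the group means correlated at −0.096 to 0.199 between same-numbered arrays, and 4 of 10 treated arrays correlated best with their own number. With 3 or 4 arrays per group this check cannot exclude a pairing. The arrays, 3 or 4 per group, limit the precision, and probe sets with a mean under 6 give the least certain values.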
